A study of Mus musculus with 21 samples.

Results

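The comparison described here sets LT-HSC, long-term haematopoietic stem cells sorted from mouse bone marrow, of RXR knockouts that also carry a Myc-family allele against LT-HSC of animals labelled RXR knockout alone. It uses 6 of the 21 libraries of the series, 3 in each group, chosen by their labels. The first group is labelled Vav1Cre+Rxrabfl/fl Myclfl/+ (replicates 1, 2 and 3), so it carries 1 floxed copy of a Myc-family gene beside an unfloxed copy, and it is called the Myc allele group. The second is labelled Vav1Cre+Rxrabfl/fl (replicates 4, 5 and 6) and is called the labelled knockout. Another group of the same batch, Vav1Cre+WT (replicates 4, 5 and 6), is given beside them as the Cre control. All 9 libraries are from batch 2, and all 3 groups carry Cre recombinase under the promoter of Vav1, a gene active throughout the blood lineage. The floxed genes of the labelled knockout are Rxra and Rxrb. Animals were pooled before sorting according to the labels, and neither ages nor sexes are stated. The titles write the added allele as Mycl while the descriptions write Myc.

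RXR proteins are nuclear receptors that bind DNA mostly as partners of other receptors, among them those for retinoic acid, oxysterols, fatty acids and thyroid hormone. Myc is a transcription factor that binds E-box sites with its partner Max and raises the output of genes for ribosome production, nucleotide synthesis and cell division. In blood stem cells low Myc activity goes with quiescence and retention in the niche, and higher Myc activity goes with exit towards differentiation.

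The 6 libraries differed in quality as well as in label. Transcript levels are in TPM, a length-adjusted share of each library that keeps no read depth, so the reads behind a value are unknown. Pearson's r between libraries of the same group, on log2(TPM + 1), lay between 0.865 and 0.899 in the Myc allele group, between 0.930 and 0.944 in the labelled knockout and between 0.976 and 0.984 in the Cre control. A single identifier without a symbol, ENSMUSG00000089855, held 30.5%, 15.7% and 10.6% of the full TPM scale in Myc allele 1, 2 and 3, against 23.8% to 24.9% in the labelled knockouts. Mitochondrial transcripts summed to 19836, 86230 and 106371 TPM in Myc allele 1, 2 and 3, against 30790 to 57559 TPM in the labelled knockouts. The Y-linked Ddx3y reached 11.4 TPM in Myc allele 3 and at most 0.176 TPM in the other 5 libraries, and the part of sex in the differences was not tested. Of the LT-HSC markers, Kit, Slamf1, Procr, Hlf and Mecom were at 14.5 TPM or more in all 6 libraries, and Fgd5 was at 5.91 TPM or more. Hoxb5, another LT-HSC marker, had 5.44, 2.64 and 1.84 TPM in Myc allele 1, 2 and 3, against 0.2998, 0.378 and 5.85 TPM in labelled knockout 4, 5 and 6. Of the markers of later progenitors, Cd48 was at 1.98 TPM or less in all 6, while Flt3 had 3.37, 8.98 and 0.336 TPM in the Myc allele libraries, against 5.80, 2.704 and 5.91 TPM in the labelled knockouts. Of the lymphoid markers, Dntt and Cd3e were at 0.276 TPM or less, while the immunoglobulin light chain gene Igkc had 0.796, 21.9 and 62.9 TPM in the Myc allele libraries, against 60.2, 0 and 15.2 TPM in the labelled knockouts.

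Exon junctions give a more direct view of the floxed alleles than transcript levels, and they did not follow the labels. Junction use is given as PSI, percent spliced in, a fraction from 0 to 1 that sets the reads of a junction against those of its competitors. In Rxra, on chromosome 2 of mm10, the deposited event compares a junction that skips an exon (27741203 to 27748612) with the junction into that exon (27741203 to 27741764). The skipping junction had a PSI of 0.647, 0 and 1 in Myc allele 1, 2 and 3, against 0, 0.0127 and 0 in labelled knockout 4, 5 and 6, and 0 in all 3 Cre controls. The junction into the exon had a PSI of 0.185, 1 and 0 in Myc allele 1, 2 and 3, against no value, 0.978 and 1 in labelled knockout 4, 5 and 6. Among the 9 libraries the skip was above a PSI of 0.1 in Myc allele 1 and 3 only. Myc allele 2 and labelled knockout 4 and 6 were at 0 as were the Cre controls, labelled knockout 5 was just above 0, and labelled knockout 4 rests on the skipping junction alone. In batch 1 the knockout LT-HSC library with a value had 0.938 for the skip, against 0, 0.1 and 0 in the floxed LT-HSC controls.

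The first of the Myc junctions split the Myc allele group the same way. The examined Myc junction on chromosome 15 (61988278 to 61989346) joins the last exons of the gene. Its competing junction (61985951 to 61992777) starts in the first exon, passes over the later exons and ends beyond the annotated end of Myc at 61990361. The PSI of the examined junction was 0.761, 1 and 0.736 in Myc allele 1, 2 and 3, against 0.976, 0.993 and 0.999 in labelled knockout 4, 5 and 6, and 0.995 to 0.999 in the Cre controls. Myc allele 1 and 3 were thus below every other library and Myc allele 2 was not. A junction from the first exon to an alternative 3' site (61985951 to 61987507) had a PSI of 0.464, 0.707 and 0.411 in Myc allele 1, 2 and 3, against 0.772, 0.889 and 0.823 in labelled knockout 4, 5 and 6. All 3 Myc allele libraries were below all labelled knockouts there, with 0.820 to 0.848 in the Cre controls. Floxed LT-HSC controls of batch 1 had 0.752 to 0.789, nearer to Myc allele 2 than to Myc allele 1 and 3. The competing junction (61985951 to 61987510) had 0.108, 0.293 and 0.0530 in Myc allele 1, 2 and 3, against 0.123, 0.111 and 0.177 in labelled knockout 4, 5 and 6. It was thus above all labelled knockouts in Myc allele 2 and below them in Myc allele 1 and 3. The events at Rxrb choose between 3' splice sites 12 bases apart and do not report an exon deletion.

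**Figure D1:**
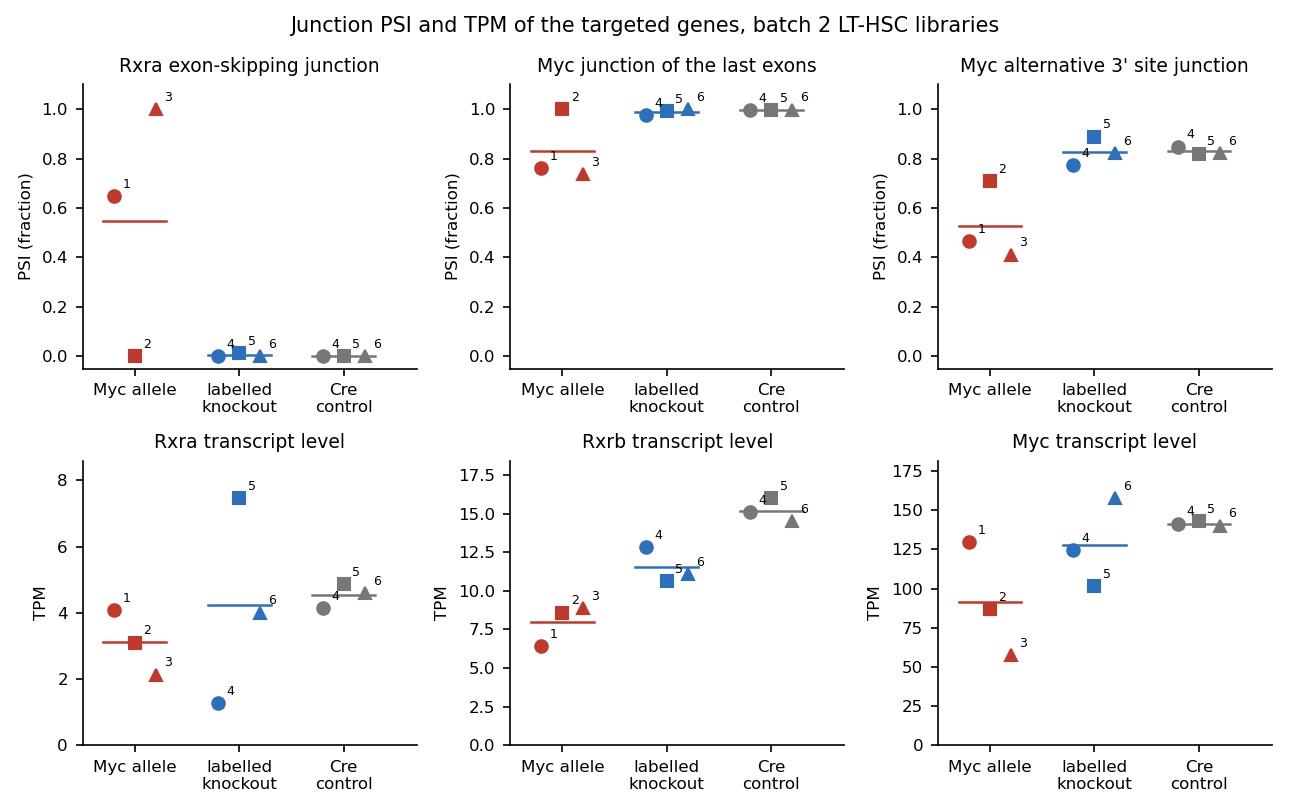
PSI of 1 Rxra and 2 Myc junctions (upper row) and TPM of Rxra, Rxrb and Myc (lower row) in the 9 libraries of batch 2, with each replicate number beside its point and a line at the group mean. Myc allele 1 and 3 carry the Rxra skip (0.647 and 1) and lower use of the Myc junction (0.761 and 0.736), while Myc allele 2 and the labelled knockouts lie close to the Cre controls in both.

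Since 2 of the 3 Myc allele libraries show the Rxra skip and none of the labelled knockouts does, the Myc allele and the state of Rxra cannot be told apart in this comparison. Myc itself had 129.5, 86.9 and 57.6 TPM in Myc allele 1, 2 and 3, against 124.7, 101.6 and 157.9 TPM in labelled knockout 4, 5 and 6. With median-of-ratios rescaling of the libraries the groups did not overlap for Myc (exact two-sided permutation p = 0.1). On the deposited scale they overlapped, with Myc allele 1 above 2 of the labelled knockouts (exact two-sided permutation p = 0.3). With 3 against 3 libraries this test cannot give less than 0.1, so Myc did not pass it on either scale. The mean was 91.4 ± 36.1 TPM in the Myc allele group and 128.1 ± 28.3 TPM in the labelled knockout (SD, n = 3 each), against 141.6 ± 1.45 TPM in the Cre control. Mycl, the gene named in the titles, stayed at or below 0.670 TPM in all 9 libraries (exact permutation p = 1), so its loss could not have been read from these data. Mycn, another member of the family, had 89.9, 26.7 and 26.0 TPM in the Myc allele libraries, against 32.0, 20.0 and 64.6 TPM in the labelled knockouts (exact permutation p = 0.7).

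Of the receptors, Rxrb separated the groups on the deposited scale and Rxra did not. Rxrb had 6.40, 8.59 and 8.88 TPM in Myc allele 1, 2 and 3, against 12.8, 10.6 and 11.1 TPM in labelled knockout 4, 5 and 6, and 15.1, 16.0 and 14.5 TPM in Cre control 4, 5 and 6. The 3 groups did not overlap, and the exact permutation p of 0.1 between the Myc allele group and the labelled knockout is the smallest this design allows (0.5 after Benjamini-Hochberg adjustment over 5 genes). With median-of-ratios rescaling, and on the scale without ENSMUSG00000089855 and mitochondrial transcripts, the exact permutation p for Rxrb was 0.2. For Rxrb the Myc allele group and the labelled knockout thus overlapped on both of those scales. For Myc the exact permutation p was 0.1 with the rescaling, without overlap, and 0.2 on the other of those scales. Whether Myc or Rxrb separated the groups thus depended on the scale. Rxra had 4.08, 3.09 and 2.13 TPM in the Myc allele libraries, against 1.27, 7.46 and 4.00 TPM in the labelled knockouts, and 4.14 to 4.85 TPM in the Cre controls. The Rxra values of the labelled knockouts enclosed those of the Myc allele group (exact permutation p = 0.7). Rxra TPM did not follow the junctions, since labelled knockout 4, with a skip PSI of 0, had the lowest level of the 9 libraries. In the model over all genes the log2 change was -0.54 ± 0.28 (SE) for Myc, -0.49 ± 0.27 for Rxrb and -0.19 ± 0.43 for Rxra, each with an adjusted p of 1.00. Max, the DNA-binding partner of Myc, had 70.4, 38.2 and 27.7 TPM in the Myc allele libraries, against 47.5, 42.0 and 64.1 TPM in the labelled knockouts.

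Across the transcriptome no gene passed the test between the Myc allele group and the labelled knockout. With limma on log2(TPM + 1) and Benjamini-Hochberg adjustment, 0 of 13445 genes (0%) had an adjusted p under 0.05, and the lowest adjusted p was 0.570. Without Myc allele 2, the library that lacked the Rxra skip, 1 gene was called, Gm8430, and without Myc allele 1 there were 3. At an unadjusted p under 0.05 there were 547 genes (4.07%), 324 higher in the Myc allele group (2.41%) and 223 lower (1.66%). After rescaling each library by median-of-ratios size factors the count at that unadjusted threshold was 725, with 320 higher and 405 lower, so the balance between directions depends on the scale. The groups did not overlap for 347 genes that were higher (2.58%) and 241 that were lower (1.79%). The median standard error of a log2 change was 0.35, so a typical gene would need a change several times that size to pass. The Cre controls enter that estimate of the spread, and a fit of the 6 compared libraries alone gave a median standard error of 0.44. The median log2 change of all genes was 0.04.

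Of the 10 genes named as higher by the lowest unadjusted p, the first by that p was Olfr632, an olfactory receptor gene on chromosome 7. It had 11.0, 18.1 and 9.50 TPM in Myc allele 1, 2 and 3, against 3.36, 1.42 and 1.90 TPM in labelled knockout 4, 5 and 6, and 0.790, 1.46 and 0.780 TPM in the Cre controls (log2 change 2.10 ± 0.36 SE, adjusted p = 0.570). All 3 Myc allele libraries were above all 6 others, including Myc allele 2, which lacked the Rxra skip, and the log2 change was 1.84 without that library. In batch 1, whose libraries enter no group here, Olfr632 had 9.01, 13.6 and 16.8 TPM in knockout LT-HSC, against 1.13, 1.27 and 1.52 TPM in floxed LT-HSC. Of the 20 genes named in both directions 18 were tested in batch 1, and Olfr632 alone passed there. Among all 13186 genes tested in both batches, 2.06% passed as higher and 2.75% as lower in batch 1 knockouts. A single pass among 18 genes therefore does not set the named genes apart. For Olfr632 the MPP libraries of batch 1, from multipotent progenitors, had at most 0.179 TPM.

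Bach2, a transcriptional repressor that shapes lymphoid differentiation, had 13.1, 28.6 and 11.6 TPM in Myc allele 1, 2 and 3, against 4.31, 2.41 and 6.68 TPM in labelled knockout 4, 5 and 6 (log2 change 1.74 ± 0.40 SE, adjusted p = 0.654). The Cre controls, at 5.53 to 7.99 TPM, overlapped the labelled knockouts and not the Myc allele group. Abi3, an actin-regulating adaptor, had 10.5, 13.1 and 15.7 TPM in the Myc allele libraries, against 2.86, 3.00 and 6.58 TPM in the labelled knockouts. Spaca6, known for its part in sperm-egg fusion, had 8.25, 8.74 and 25.6 TPM in the Myc allele libraries, against 1.17, 2.53 and 2.604 TPM in the labelled knockouts. Tbx19, a T-box factor of pituitary cells, had 2.50, 8.31 and 1.52 TPM in the Myc allele libraries, and at most 0.127 TPM in the labelled knockouts, where 2 of 3 libraries are listed at 0. The others were the neuropeptide gene Nmb, the histone gene Hist1h4m, the collagen-modifying P3h4, the SOCS-box gene Wsb2 and Bhlhb9, with log2 changes of 1.40 to 1.94.

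Of the 10 genes named as lower, Dpf3, a subunit of BAF chromatin-remodelling complexes, had 0.118, 0.136 and 0.209 TPM in Myc allele 1, 2 and 3, against 3.11, 4.71 and 2.99 TPM in labelled knockout 4, 5 and 6, and 0.692, 2.05 and 2.24 TPM in the Cre controls (log2 change -1.98 ± 0.36 SE, adjusted p = 0.570). Acot1, a cytosolic acyl-CoA thioesterase and known PPARα target, had 3.28, 5.32 and 3.10 TPM in the Myc allele libraries, against 9.97, 13.3 and 10.2 TPM in the labelled knockouts. Fastkd2, a mitochondrial RNA-binding protein, had 5.89, 6.70 and 11.5 TPM in the Myc allele libraries, against 16.8, 28.7 and 22.6 TPM in the labelled knockouts. Morn3 had 2.06, 3.74 and 8.56 TPM in the Myc allele libraries, against 13.6, 16.5 and 16.2 TPM in the labelled knockouts. Its Cre controls, at 7.03, 5.69 and 7.23 TPM, lay within the range of the Myc allele group, so the labelled knockouts stood apart. The others were Rnf113a1, Ifi206, Rxfp4, Spa17, the antisense transcript Atad3aos and the ribosomal pseudogene Rps12-ps26, with log2 changes of -2.21 to -1.52. Of the 10, 5 had means under 5 TPM in both groups. The labelled knockouts were all above the Cre controls for 5 of the 10. The Myc allele libraries were all below the Cre controls for 5 of the 10. Rps12-ps26 may share reads with its parent gene, and Atad3aos with its sense partner, so both levels are uncertain.

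**Figure D2:**
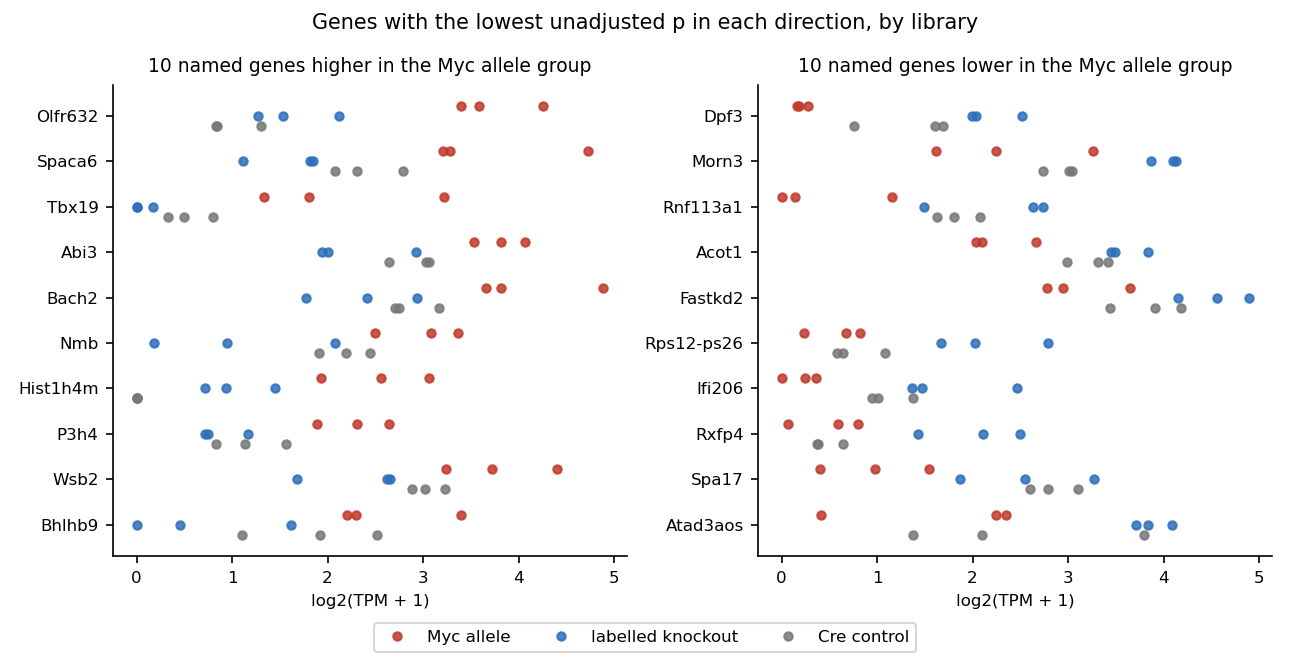
Level of the 20 named genes as log2(TPM + 1), 1 point per library, with the Myc allele group above the labelled knockout and the Cre control in each row. The Myc allele libraries and the labelled knockouts do not overlap for any of the 20, and none passes the adjusted test. The 20 were chosen by the lowest unadjusted p of this comparison, so the lack of overlap follows largely from that choice. Of all genes, 2.58% were higher and 1.79% lower without overlap.

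Some junction events passed the test in the fit of the 9 libraries, whereas no gene did, but the calls did not hold in every fit. The deposited events were already selected, so their call rate cannot be compared with that of the genes. PSI was tested for 25312 events with a value in all 9 libraries, and 4 of them (0.0158%) were called, by an adjusted p under 0.05 together with a shift in mean PSI of 0.1 or more. Of the 4, 3 describe 1 intron of Hspa8, the gene of the constitutive cytosolic chaperone Hsc70. The intron lies on chromosome 9 and its splice junction (40802891 to 40802974) spans 82 bases. Its PSI was 1.00, 0.781 and 0.887 in Myc allele 1, 2 and 3, against 0.0424, 0.0426 and 0.0645 in labelled knockout 4, 5 and 6, and 0.959 to 0.971 in the Cre controls (difference 0.84 ± 0.06 SE, adjusted p = 0.00364). The 2 intron-boundary events ran the opposite way, at 0.179 or less in the Myc allele libraries and at 0.804 or more in the labelled knockouts. It is the labelled knockouts that stand apart, since the other 18 libraries of the series had a splice PSI of 0.781 to 1. Hspa8 transcript levels overlapped, with 395.5, 423.9 and 363.6 TPM in the Myc allele libraries, against 297.8, 275.1 and 426.1 TPM in the labelled knockouts, and 565.8 to 846.2 TPM in the Cre controls.

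The fourth called event is a cassette exon of Gmfb, the gene of glia maturation factor beta, an actin regulator. The junction from the included exon (46817482 to 46818416 on chromosome 14) had a PSI of 0.482, 0.394 and 0.444 in Myc allele 1, 2 and 3, against 0, 0 and 0.02 in labelled knockout 4, 5 and 6, and 0.167, 0.172 and 0.108 in Cre control 4, 5 and 6 (difference 0.43 ± 0.04 SE, adjusted p = 0.0390). The Myc allele libraries were above every other library of the series, whose highest value was 0.206. Gmfb transcript levels overlapped, at 29.98, 22.05 and 21.05 TPM in the Myc allele libraries, against 24.4, 16.9 and 28.4 TPM in the labelled knockouts. The named events that did not pass were in Fam173a, Pign, Zeb1, Cdk6 and Dcaf11. In Cdk6, a kinase that drives exit from stem cell quiescence, the spliced junction (3341574 to 3344119 on chromosome 5) had a PSI of 0.165, 0.294 and 0.16 in the Myc allele libraries, against 0.667, 1 and 1 in the labelled knockouts (adjusted p = 0.251). The Cre controls had 0.25 to 0.3. Here too the labelled knockouts stood apart, since all other libraries of the series had 0.16 to 0.388. No call was left on the log2 odds of PSI or in a fit of the 6 libraries alone, where the count was 0. Without Myc allele 1 the count was 306 and without labelled knockout 6 it was 42, so the number of called events rests on single libraries. Without Myc allele 2 the count was 7. The Hspa8 calls stayed without each of the 6 libraries in turn, while the Gmfb call was lost without Myc allele 3, without labelled knockout 4 and without labelled knockout 5, and also where 2 values per group were enough.

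**Figure D3:**
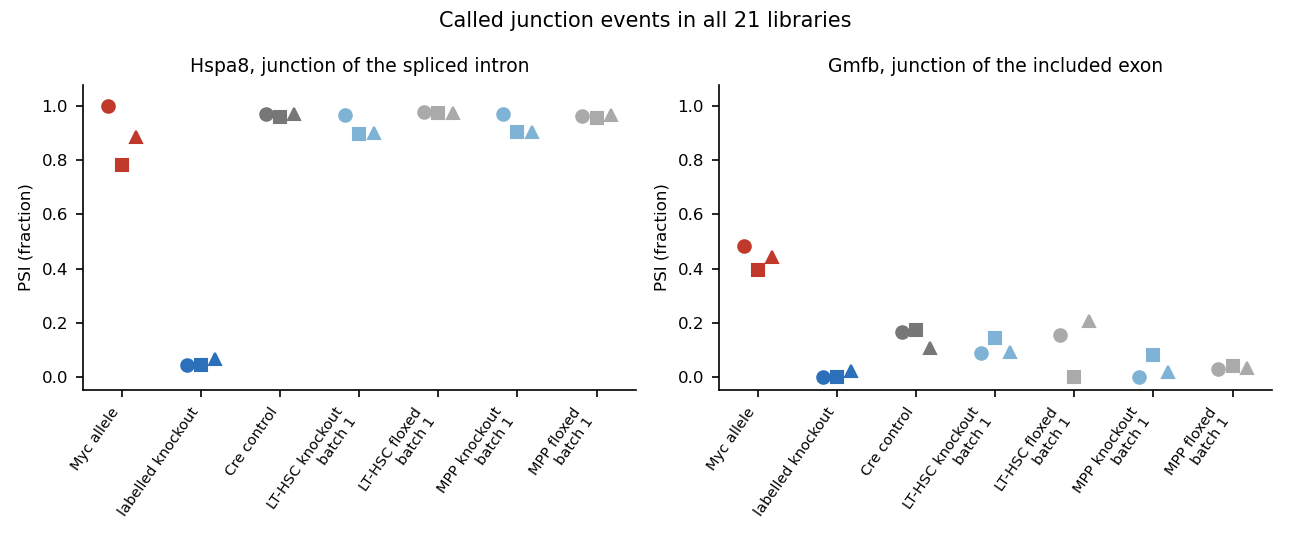
PSI of the called Hspa8 and Gmfb junctions in all 21 libraries, 1 point per library, with marker shapes for the replicates of a group. The labelled knockouts are the only libraries with an Hspa8 splice PSI near 0 (0.0424 to 0.0645), and the Myc allele libraries have the highest Gmfb exon use (0.394 to 0.482).

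Gene lists are described by counts and medians beside the same for all genes, of which 54.7% had a log2 change above 0. In none of the 37 lists did a member rise or fall, and the medians ran from -0.38 for erythroid markers to 0.91 for sex-linked genes. Of 39 tested Myc targets, genes of ribosome production, chaperones and metabolism, 27 had a lower mean log2 level in the Myc allele group and 12 a higher one, with a median of -0.07 against 0.04 for all genes. Nme1, a nucleoside diphosphate kinase, had 35.3, 21.6 and 11.6 TPM in Myc allele 1, 2 and 3, against 40.8, 42.7 and 33.7 TPM in labelled knockout 4, 5 and 6 (log2 change -0.87 ± 0.34 SE, adjusted p = 1.00). Dkc1, the pseudouridine synthase dyskerin, had 77.4, 54.7 and 34.7 TPM in the Myc allele libraries, against 92.3, 66.0 and 92.4 TPM in the labelled knockouts. Cct3, a subunit of the TRiC chaperonin, had 150.4, 109.5 and 67.5 TPM in the Myc allele libraries, against 184.5, 155.1 and 141.7 TPM in the labelled knockouts. In all 3 genes the lowest value was that of Myc allele 3 and the groups overlapped. Ribosome biogenesis genes were similar, with 25 of 37 lower and a median of -0.09, as was oxidative phosphorylation, with 21 of 25 lower and a median of -0.15. Summed over the Myc targets the level was 4464, 3807 and 2881 TPM in Myc allele 1, 2 and 3, against 3616, 3315 and 4270 TPM in labelled knockout 4, 5 and 6. By sum, Myc allele 3 alone was below all labelled knockouts in each of these 3 lists. The cytosolic ribosomal proteins had 20 of 37 lower and a median of -0.01.

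The promoters of these 3 Myc targets are shown because Myc and Max bind the E-box, whose canonical form CACGTG reads the same on both strands. The 250 bases before each RefSeq start site (GRCm38.p6, shown 5′ to 3′ on the gene's strand) are in lower case with CACGTG in capitals. They lie at chr11:93968273-93968522 (minus strand) for Nme1, chrX:75095604-75095853 (plus strand) for Dkc1 and chr3:88296885-88297134 (plus strand) for Cct3.
Nme1: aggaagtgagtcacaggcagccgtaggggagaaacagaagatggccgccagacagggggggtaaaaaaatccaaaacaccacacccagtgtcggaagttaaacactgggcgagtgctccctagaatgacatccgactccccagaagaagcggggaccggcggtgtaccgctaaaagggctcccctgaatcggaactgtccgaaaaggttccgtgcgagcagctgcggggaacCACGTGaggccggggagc
Dkc1: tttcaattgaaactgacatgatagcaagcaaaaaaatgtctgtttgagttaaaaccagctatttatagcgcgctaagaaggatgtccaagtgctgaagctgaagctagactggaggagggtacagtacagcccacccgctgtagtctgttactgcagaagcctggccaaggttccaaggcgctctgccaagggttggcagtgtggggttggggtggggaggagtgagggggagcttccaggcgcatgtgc
Cct3: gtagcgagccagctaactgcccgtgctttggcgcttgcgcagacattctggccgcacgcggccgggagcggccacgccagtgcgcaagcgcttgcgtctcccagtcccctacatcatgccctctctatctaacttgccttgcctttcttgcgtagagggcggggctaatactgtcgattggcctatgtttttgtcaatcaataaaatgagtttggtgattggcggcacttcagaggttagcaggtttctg
The window of Nme1 holds the motif 12 bases before the start site, and those of Dkc1 and Cct3 do not hold these letters. Of 32 tested Myc targets with a window, 8 held it (25%), against 950 of 9680 tested genes with a window (9.81%) and 6.02% of all 32851 windows. The median log2 change was -0.07 in the 8 listed targets with the motif and -0.08 in the 24 without. Over all tested genes the median was 0.01 with the motif and 0.04 without.

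Cell-cycle genes leaned lower in the Myc allele group. Of 30 S phase genes 25 had a lower mean, with a median of -0.19, and of 30 genes of G2 and M phase 23 had a lower mean, also with a median of -0.19. Ccne2, a cyclin of the entry into S phase, had 6.12, 5.96 and 6.18 TPM in the Myc allele libraries, against 13.1, 19.9 and 7.92 TPM in the labelled knockouts, without overlap (log2 change -0.96 ± 0.37 SE, adjusted p = 1.00). Summed over the S phase list the level was 1551, 1285 and 792 TPM in Myc allele 1, 2 and 3, against 1337, 1067 and 1433 TPM in the labelled knockouts, so Myc allele 3 alone was below all of them. Without Myc allele 3 the median relative to all genes was 0.02 for S phase and 0.05 for G2 and M phase, against -0.23 for each with it. LT-HSC genes leaned higher, with 30 of 40 above 0 and a median of 0.16. Their summed level overlapped between the groups, at 2883, 1786 and 1926 TPM in Myc allele 1, 2 and 3, against 1642, 1429 and 2815 TPM in labelled knockout 4, 5 and 6. Mecom, a transcription factor needed for stem cell maintenance, had 119.7, 146.1 and 89.3 TPM in the Myc allele libraries, against 69.6, 51.4 and 120.3 TPM in the labelled knockouts.

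Immediate early, NF-kB and p53 target genes had higher medians in the Myc allele group, which rested on Myc allele 3. Of 25 immediate early genes, which respond within minutes to stimulation, 24 had a higher mean in the Myc allele group, with a median of 0.47. Nr4a2, an orphan nuclear receptor of this class that can pair with RXR, had 27.7, 58.7 and 233.3 TPM in Myc allele 1, 2 and 3, against 19.6, 40.1 and 36.6 TPM in labelled knockout 4, 5 and 6. Socs3, a feedback inhibitor of cytokine signalling, had 5.20, 3.25 and 38.6 TPM in the Myc allele libraries, against 4.14, 2.71 and 6.05 TPM in the labelled knockouts. The p53 target and cell-cycle inhibitor Cdkn1a had 76.0, 14.6 and 813.8 TPM in the Myc allele libraries, against 18.01, 22.8 and 36.5 TPM in the labelled knockouts (log2 change 1.95 ± 0.95 SE, adjusted p = 1.00). Myc allele 2 had the lowest Cdkn1a level of the 6 and Myc allele 3 the highest. Without Myc allele 3 the median of the immediate early list relative to all genes was -0.27, against 0.43 with it. The NF-kB list (16 of 22 higher, median 0.34) and the p53 list (14 of 19 higher, median 0.24) also lost their direction, at -0.04 and -0.06 relative to all genes without that library.

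**Figure D4:**
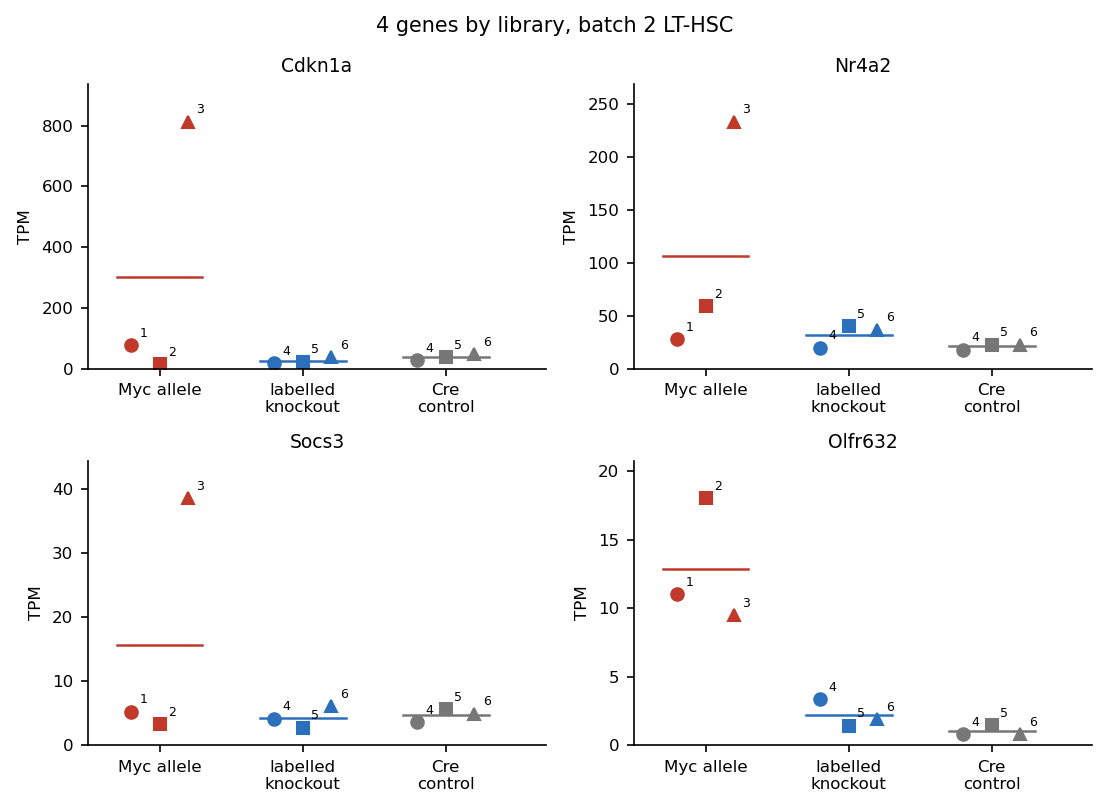
TPM of Cdkn1a, Nr4a2, Socs3 and Olfr632 in the 9 libraries of batch 2, with replicate numbers beside the points and a line at the group mean. Cdkn1a, Nr4a2 and Socs3 are highest in Myc allele 3 (813.8, 233.3 and 38.6 TPM), while Olfr632 is high in all 3 Myc allele libraries.

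Interferon response genes leaned lower in the Myc allele group, with 36 of 44 below 0 and a median of -0.25. Irf7, the factor that amplifies the type I interferon response, had 7.94, 4.09 and 3.03 TPM in Myc allele 1, 2 and 3, against 16.8, 10.6 and 10.4 TPM in labelled knockout 4, 5 and 6, without overlap, and 6.09 to 8.25 TPM in the Cre controls (log2 change -1.22 ± 0.35 SE, adjusted p = 1.00). Isg15, a ubiquitin-like protein induced by interferon, had 11.3, 1.36 and 5.16 TPM in the Myc allele libraries, against 16.9, 12.3 and 10.04 TPM in the labelled knockouts. The list's median stayed below that of all genes without each library in turn, at -0.44 to -0.16.

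Among RXR receptors and their partner receptors, 11 of 14 tested members had a higher mean, with a median of 0.40. Ppard, a fatty acid receptor that works as a dimer with RXR, had 6.60, 11.2 and 4.38 TPM in the Myc allele libraries, against 2.61, 0.463 and 3.99 TPM in the labelled knockouts, without overlap (log2 change 1.42 ± 0.46 SE, adjusted p = 1.00). Nr2f6, an orphan receptor, had 1.61, 0.503 and 1.37 TPM in the Myc allele libraries, against 0.299, 0.0597 and 0.3004 TPM in the labelled knockouts, also without overlap, and 1.32 to 2.09 TPM in the Cre controls. Without Myc allele 3 the median of the list relative to all genes was -0.03, against 0.36 with it. Of 20 PPAR targets 12 had a lower mean (median -0.16), as did 10 of 19 LXR targets (median -0.05) and 5 of 9 retinoic acid receptor targets (median -0.05). Cholesterol synthesis genes had 18 of 22 lower and a median of -0.23.

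**Figure D5:**
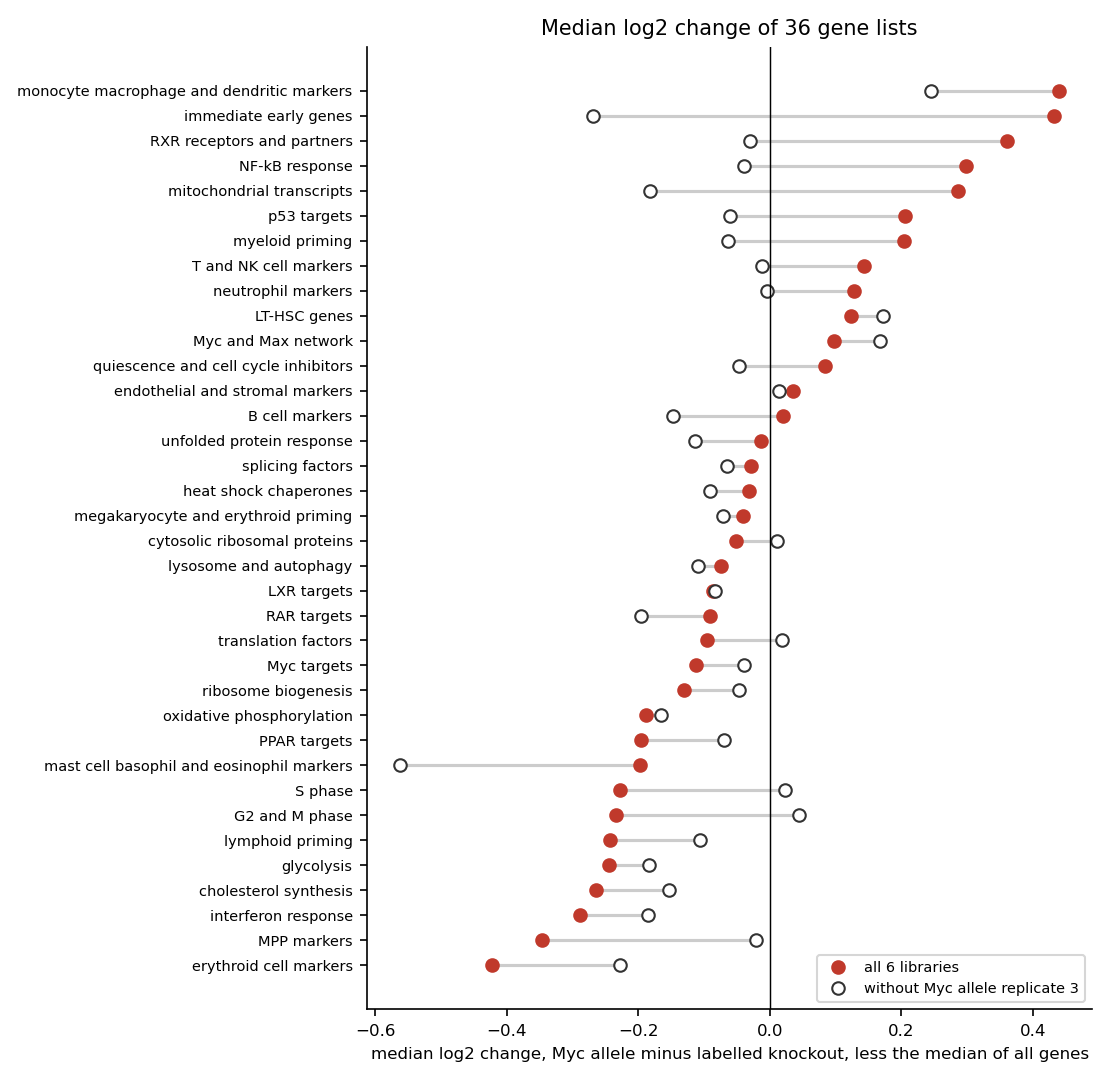
Median log2 change (Myc allele group minus labelled knockout) of 36 gene lists, less the median of all genes, with all 6 libraries (filled) and without Myc allele 3 (open). The immediate early list moves to the other side of 0 without Myc allele 3, and 15 of all 37 lists do so.

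No marker of other blood cells passed the test. Of 14 tested erythroid markers 10 had a lower mean, with a median of -0.38, and their summed level was 739, 395 and 338 TPM in Myc allele 1, 2 and 3, against 460.1, 439 and 502 TPM in the labelled knockouts. Gata1, the master regulator of red cell and megakaryocyte genes, had 8.11, 2.77 and 3.37 TPM in the Myc allele libraries, against 12.8, 9.58 and 9.36 TPM in the labelled knockouts, without overlap (log2 change -1.11 ± 0.35 SE, adjusted p = 1.00). The carbonic anhydrase gene Car1 had 3.95, 2.05 and 4.61 TPM in the Myc allele libraries, against 8.01, 13.3 and 7.21 TPM in the labelled knockouts. The adult globin gene Hbb-bt went the opposite way, with 229.3, 93.3 and 77.7 TPM in the Myc allele libraries, against 64.0, 44.5 and 32.9 TPM in the labelled knockouts, again without overlap. Its Cre controls, at 99.4, 65.0 and 29.8 TPM, overlapped both groups. The globin genes Hba-a1 and Hbb-bs did not share this separation. Hba-a1 had 8.15, 6.14 and 0.183 TPM in the Myc allele libraries, against 15.1, 18.2 and 1.44 TPM in the labelled knockouts. Hbb-bs had 8.16, 4.37 and 9.00 TPM, against 3.61, 6.32 and 7.15 TPM. In bulk RNA fewer cells of a type and less RNA per cell cannot be told apart. Of 7 tested neutrophil markers 5 had a higher mean in the Myc allele group, with a median of 0.17, and the list summed to 27.7 to 32.5 TPM in the Myc allele libraries, against 29.6 to 30.1 TPM in the labelled knockouts. Among them S100a8, a calcium-binding protein of neutrophils, had 0.463, 0.128 and 1.88 TPM in the Myc allele libraries, against 9.94, 4.45 and 6.61 TPM in the labelled knockouts, and Ltf, a defining granule gene, was at 0.290 TPM or less in both. S100a9, the partner of S100a8, had 0.295, 2.45 and 6.74 TPM in the Myc allele libraries, against 0.859, 3.02 and 1.05 TPM in the labelled knockouts, so the groups overlapped and Myc allele 3 was highest. Of 5 tested T and NK cell markers 3 had a higher mean, with a median of 0.18. Cd3d, a chain of the T cell receptor complex, had 1.21, 16.03 and 3.76 TPM in the Myc allele libraries, against 3.81, 3.42 and 1.35 TPM in the labelled knockouts. The T cell co-receptor gene Cd4 had 0.658, 8.23 and 1.19 TPM in the Myc allele libraries, against 0.947, 0.961 and 0.440 TPM in the labelled knockouts, and both genes were highest in Myc allele 2. Of 8 tested B cell markers 5 had a higher mean, with a median of 0.06. All 4 tested monocyte, macrophage and dendritic markers had a higher mean, with a median of 0.48. That list summed to 349, 230 and 228 TPM in the Myc allele libraries, against 194, 149 and 269 TPM in the labelled knockouts, with overlap. A higher mean was also seen for 6 of 10 endothelial and stromal markers and 1 of 3 mast cell, basophil and eosinophil markers. The part of other cells in the gene differences was not tested.

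Batch 1 of the series compares RXR knockout with floxed control LT-HSC in libraries that share none with the present groups, and gives a second view of the same genes. Of the genes tested here and there, 272 (2.06%) were higher and 362 (2.75%) lower in batch 1 knockouts at an adjusted p under 0.05 after rescaling. Of the 272, 194 (71.3%) had a log2 change above 0 between the Myc allele group and the labelled knockout, against 54.7% of all genes, and their median was 0.26. Of the 362, 137 (37.8%) were above 0, with a median of -0.09. By library, the median of the 272 genes against the mean of the labelled knockouts was -0.03, 0.42 and 0.36 in Myc allele 1, 2 and 3, where all genes were at 0.28, -0.02 and -0.15. Myc allele 2 and 3 thus had these genes above their own median and Myc allele 1 below it. The median of the 362 genes was 0.20, -0.27 and -0.31 in Myc allele 1, 2 and 3, below that of all genes in each library. Relative to all genes, the median of the genes higher in batch 1 knockouts was 0.05 without Myc allele 3, 0.11 without Myc allele 2, 0.10 without labelled knockout 6 and 0.48 without Myc allele 1, against 0.22 with all libraries.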

How the data were processed

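RNA of sorted mouse cells was measured by RNA-seq, with amplified cDNA from 5 ng of total RNA per library per the labels' protocols. The authors deposited TPM for 28987 Ensembl identifiers, of which 27458 had a symbol in the gene name table, and per the submitters' processing notes kallisto and STAR 2.6 were used with mm10. Neither the kallisto version nor its transcript set is given in the sources used here. TPM of the batch 2 libraries sum to 691094 to 918942. The authors also deposited junction use as a fraction (PSI) for 46443 events, a table already selected, with a lowest deposited spread of 0.15. No read depth is given, so no counting interval can be printed. All per-sample columns were mapped to samples by name.

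Genes that reached 1 TPM in 3 or more of the 9 batch 2 libraries were fitted with limma 3.58.1 (R 4.3.3) and an intensity trend on log2(TPM + 1), which understates changes of low genes, as the contrast of the Myc allele group minus the labelled knockout. PSI was fitted with limma on events with a value in all 9 libraries. Adjusted p-values are Benjamini-Hochberg over all features, called under 0.05. The fits were tested on simulated data, where the PSI fit made some false calls. Single genes were compared by exact two-sided permutation tests. P-values measure the spread between libraries of pooled animals. As fewer than 10 per direction were called, genes were named by the lowest p, leaving out identifiers with no symbol and symbols of predicted genes (Gm or Rik), from each list among its 3 members of lowest p, and always Myc, Mycl, Mycn, Max, Rxra and Rxrb. The comparison, its members and the 37 lists were chosen with earlier results of these data known. Positions are those of mm10 or GRCm38. Promoters are from RefSeq. Figures used Python 3.11.15 and matplotlib 3.10.9.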

Additional observations from a re-analysis of the deposited data

How the results depend on the processing

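No paired analysis was possible because the groups compared share no replicate number. The count of called genes was 0 under 3 other scales, a pseudocount of 0.1, no filter, a minimum of 5 TPM, no variance trend and the 6 libraries alone, and 0 to 3 when 1 library was left out. The 3 calls without Myc allele 1 were Gm16159, Hist2h3b and ENSMUSG00000045999, and the 1 call without Myc allele 2 was Gm8430, all named after their values were seen. Unadjusted counts ran from 304 to 1852, the highest without Myc allele 1. The count of junction events was 4 with a minimum difference of 0.2 and with 2 values per group (3 of them shared with the main 4), 0 on log2 odds and 0 in the 6 libraries alone, and 3 to 306 when 1 library was left out. The Hspa8 events stayed in each of those 6 fits. Gmfb was lost without Myc allele 3 and without labelled knockout 4 or 5. When 1 library, or Myc allele 2 and labelled knockout 5 together, was left out, the difference in TPM ran from -0.255 to 0.0804 for Mycl, -12.5 to 21.5 for Mycn, -2.63 to 0.465 for Rxra, and the log2 change from -0.18 to 1.29 for Cd3d, -0.10 to 0.68 for Cxcr2, -0.50 to 0.15 for Fcer1a, -0.17 to 1.85 for Hes1, -0.61 to 0.042 for Max, -1.01 to 0.046 for Mvk, -0.38 to 0.63 for Mycn, -0.71 to 0.11 for Nkg7, -0.69 to 0.26 for Rxra, -1.18 to 0.016 for Sdf2l1, -0.018 to 1.14 for mt-Cytb. Sample quality weights (0 genes called, Rxra at a log2 change of 0.41) and the fit without that pair of libraries (1 gene called, Gm8430) were chosen after seeing the data. The causes were not tested. The unknown read depth and the spread within the Myc allele group limit what could be detected.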

Other observations

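Genes near the targeted loci were looked at because a floxed allele carries flanking sequence of its strain of origin. Both groups are labelled Rxrabfl/fl, so by the labels they differ in such flanks only at the added Myc-family allele. Genes near Mycl, which the titles name, were not looked at. Within 10 Mb of Myc 38 genes were tested, and 1 of them, Tatdn1, had an unadjusted p under 0.05 (2.63%, against 4.07% of all genes). Within 10 Mb of Rxra 12 of 227 genes (5.29%) did, and within 10 Mb of Rxrb 7 of 302 (2.32%), Ppard among them.

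Olfr632 (chr7:103937382-103938335) lies 123 kb from Hbb-bt (chr7:103812524-103813923), and the levels of both were higher in all 3 Myc allele libraries than in all labelled knockouts. Within 1 Mb of Olfr632 15 other genes were tested, of which 2, Hbb-bt and Gm15133, had an unadjusted p under 0.05. That share was 13.3%, against 4.07% of all genes, and it rests on those 2 genes alone. Hbb-bt did not repeat the batch 1 pattern of Olfr632, with 81.3, 108.0 and 63.4 TPM in batch 1 knockout LT-HSC, against 81.6, 34.6 and 63.9 TPM in floxed LT-HSC. These genes were chosen after their values were seen.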
